A study of Mus musculus with 12 samples.

Results

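Deaminases and DNA repair proteins of antibody gene mutation and class switching formed the set of genes described here. Its 8 members were the rows of the deposited expression table named Apobec1, Apobec3, Ung, Msh6, Exo1, Polh, Trp53bp1 and Rif1, chosen by gene symbol out of 36175 genes. The study sequenced bulk RNA of B cells that were left in Peyer's patches (PP), the lymphoid follicles of the small intestine, 18 h after surgery. There were 6 sham controls and 6 stroke mice, all male wild-type C57BL/6JHsd mice of 10 to 12 weeks, and both groups received the painkillers buprenorphine and carprofen around surgery. No transgene or deletion was listed. Stroke mice underwent transient occlusion of the middle cerebral artery for 1 h, whereas the operation on sham controls left the middle cerebral artery open. B cells were enriched on magnetic beads, first by removing other cells and then through CD45, a protein shared by all leukocytes, a step that does not itself tell B cells from other leukocytes. According to the methods, a little epithelium and endothelium of the gut remained after the first step, and the second was added to enrich further. They state a purity of at least 99% for this procedure. The comparison asks whether transcripts of these enzymes differed between the B cells left in PP after stroke and those of sham controls.

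B cells of germinal centers mutate their own antibody genes. A deaminase turns cytosine in the DNA into uracil, and repair then passes the change on as a mutation. Ung cuts the uracil out, while Msh6 helps to recognize the mismatch, Exo1 removes the strand around it and Polh, an error-prone DNA polymerase, fills the gap. Class switching, by which a B cell moves to IgA or IgG, goes through DNA breaks whose ends are protected by Trp53bp1 and its partner Rif1. Apobec1 and Apobec3 are deaminases of the same family with other known targets, and neither is the deaminase that mutates antibody genes. Apobec1 edits RNA, best known in the intestinal epithelium, and Apobec3 restricts retroviruses.

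The promoters of both deaminases are shown because these were the members whose groups did not overlap. The 250 bases before a RefSeq start site (GRCm38.p6) are given 5′ to 3′ on the strand of the gene, at chr6:122602445-122602694 (minus strand) for Apobec1 and at chr15:79892158-79892407 (plus strand) for Apobec3. Capitals mark a match to the core of the interferon-stimulated response element.
Apobec1: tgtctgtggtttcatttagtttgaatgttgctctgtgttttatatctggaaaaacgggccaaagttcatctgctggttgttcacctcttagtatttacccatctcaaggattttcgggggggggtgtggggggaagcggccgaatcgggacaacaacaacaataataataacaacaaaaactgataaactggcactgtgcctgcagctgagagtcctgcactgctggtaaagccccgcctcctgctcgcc
Apobec3: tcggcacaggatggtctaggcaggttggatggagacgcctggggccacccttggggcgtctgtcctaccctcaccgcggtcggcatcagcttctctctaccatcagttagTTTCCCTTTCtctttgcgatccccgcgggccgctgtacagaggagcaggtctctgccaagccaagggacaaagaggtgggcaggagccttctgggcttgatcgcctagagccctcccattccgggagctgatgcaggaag

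In the RefSeq promoter table used here, 6 of the 8 members were matched to 7 windows, each from 250 bases before to 50 bases after a start site. Exo1 and Rif1 were not matched in that table. The response element core, GAAA followed by any 2 bases and GAAA, was searched on both strands and found in Apobec3 on the opposite strand as TTTCCCTTTC, 140 to 131 bases before the start (chr15:79892268-79892277). Apobec3 has a second RefSeq window, at a start further downstream, and the core was not found there. Both windows lie inside the GENCODE gene, which begins at chr15:79891659, and the bases before that position were not searched. Of 32851 windows of all genes, 3.44% held this core. The core of an E2F site, TTTNNCGC, was found in Msh6 as TTTCCCGC, between 15 and 22 bases after the start, and 5.17% of all windows held it. The other motifs searched on both strands, TTCNNNGAA (8.3% of windows), GAGGAAGT (3.2%) and TGACGTCA (1.79%), had no match in a window of a member, and none of the 5 motifs matched in the window of Apobec1. Some matches to different motifs can overlap, and a match describes the letters only.

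Both deaminases were higher in stroke mice at the unadjusted threshold, and neither passed it after adjustment. Values are the deposited normalized TPM, a level per transcript length, and fold changes are on the scale of log2(value + 0.5). In the limma test, 2 of the 8 members had an unadjusted p under 0.05, both higher and none lower, where 4.42% of the 12590 tested genes were called higher and 1.69% lower by the same rule. These were also the 2 members whose groups did not overlap, and every stroke mouse was above every sham control in 0.349% of tested genes and below in 0.0874%. After Benjamini-Hochberg adjustment neither a member nor any other of the 12590 genes passed 0.05, with 0.468 as the smallest adjusted p. At the unadjusted threshold 6.12% of all genes were called in either direction, 557 higher and 213 lower, a split that was 402 to 316 with median-of-ratios scaling and 378 to 327 with quantile normalization, and that turned to 936 higher and 1162 lower without sham 6. In bulk RNA, fewer cells of a type and less RNA per cell cannot be told apart.

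Apobec1 (ENSMUSG00000040613, chr6:122577792-122602444, minus strand, GRCm38) showed the larger fold change. Its level in sham controls was 57.02 at the lowest, 65.78 at the median and 86.24 at the highest. In stroke mice it was 89.18 at the lowest, 101.5 at the median and 162.9 at the highest. All 6 stroke mice were therefore above all 6 sham controls, by a narrow margin between the highest control and the lowest stroke mouse. The mean level was 67.7 ± 10.4 in sham controls and 111 ± 27.6 in stroke mice (SD, n = 6 each). The log2 fold change was 0.69 (SE 0.16, 95% interval 0.34 to 1.03), which corresponds to 1.61-fold (1.27 to 2.04). The unadjusted limma p was 0.000785, the 18th smallest among tested genes, and the adjusted p was 0.549. An exact two-sided permutation test over the mice gave p = 0.00216, the smallest value that 6 against 6 mice can give. The highest value belonged to stroke 5, without which the log2 fold change was 0.57. An absolute log2 fold change of this size or more was seen in 2.13% of all tested genes.

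Apobec3 (ENSMUSG00000009585, chr15:79891659-79915906, plus strand) had a smaller fold change, at a higher level and with less spread. Its level ranged from 426.7 over a median of 476.6 to 519.6 in sham controls. In stroke mice it ranged from 526.3 over a median of 563.8 to 592.0. The ranges again did not overlap, and the coefficient of variation was 7.06% in sham controls and 5.08% in stroke mice. The log2 fold change was 0.23 (SE 0.09, 95% interval 0.03 to 0.43), a 1.17-fold higher level (1.02 to 1.35). The unadjusted limma p was 0.0265 and the adjusted p was 0.789, and the exact permutation p was 0.00216 as for Apobec1. The call at an unadjusted p under 0.05 was not firm, since 8 of 25 other ways of processing the data ended it, among them leaving out sham 5 or stroke 4. The direction held in all 25, with a log2 fold change between 0.20 and 0.36 and an unadjusted limma p between 0.00205 and 0.124. As the groups did not overlap, leaving out a mouse could not turn the direction. Apobec1 kept its call in 25 of 25. After subtraction of the group means, the 2 deaminases had no correlation past the threshold over the 12 mice (r = -0.0707, permutation p = 0.819, rho = 0.189, permutation p = 0.547), and r was 0.215 without the 2 mice farthest from the median of Apobec3.

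**Figure D1:**
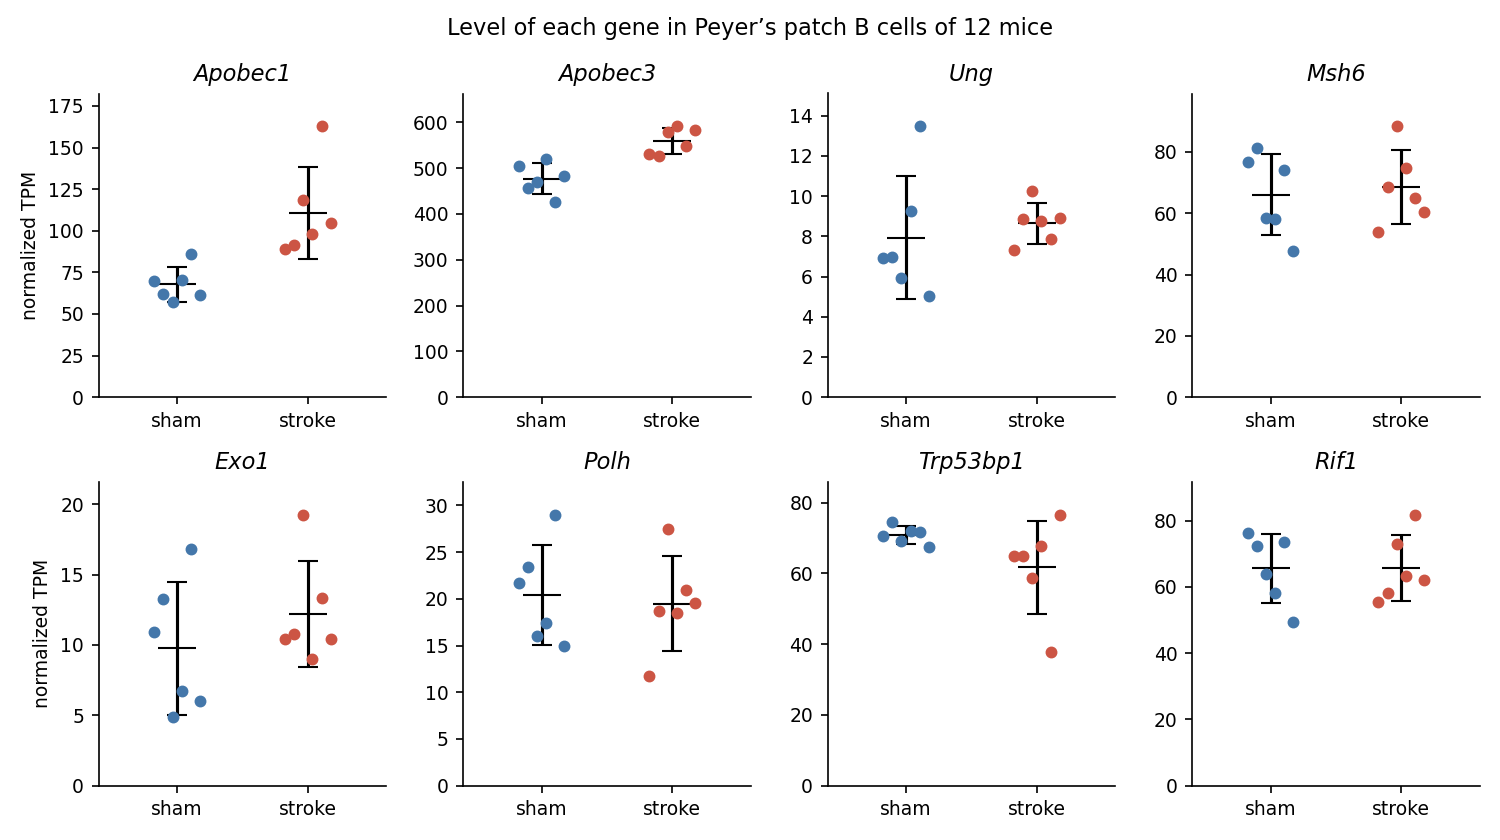
Level of each of the 8 genes in normalized TPM (vertical axis, from 0) in B cells of 6 sham controls (blue) and 6 stroke mice (red). Each point is 1 mouse, the wide line is the mean and the bars are the SD. The groups do not overlap for Apobec1 (sham up to 86.24, stroke from 89.18) and Apobec3 (sham up to 519.6, stroke from 526.3), and overlap for the other 6 genes.

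Ung (ENSMUSG00000029591, chr5:114130386-114139323, plus strand), the uracil glycosylase, had the lowest level of the set. In sham controls it was 5.043 at the lowest, 6.96 at the median and 13.49 at the highest, and in stroke mice 7.299, 8.802 and 10.26. All 6 stroke mice lay within the range of the sham controls, and all 6 were above the sham median. The log2 difference was 0.18 (SE 0.20, 95% interval -0.24 to 0.60, exact permutation p = 0.4, adjusted limma p = 0.866). Without sham 5, the control with the highest value, the difference was 0.34 and passed the unadjusted threshold, while it was 0.11 without sham 3 and 0.07 without sham 6.

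The genes of mismatch recognition and excision had overlapping groups. Msh6 (ENSMUSG00000005370, chr17:87975062-87990892, plus strand), which pairs with a partner protein to bind mismatches, was at 47.67, 66.24 and 81.11 in sham controls (lowest, median, highest) and at 53.9, 66.88 and 88.42 in stroke mice. The medians were nearly equal, and the log2 difference was 0.06 (SE 0.16, 95% interval -0.28 to 0.40, exact permutation p = 0.706, adjusted limma p = 0.945). Exo1 (ENSMUSG00000039748, chr1:175880581-175913489, plus strand), the exonuclease, was at 4.85, 8.814 and 16.83 in sham controls and at 8.964, 10.61 and 19.26 in stroke mice. It was the most variable member, with a coefficient of variation of 48.2% in sham controls, and its highest level over all mice was 3.97 times its lowest. The log2 difference was 0.39 (SE 0.28, 95% interval -0.22 to 1.0, exact permutation p = 0.245, adjusted limma p = 0.816), and all 6 stroke mice were above the sham median. Without sham 5 it was 0.57 and passed the unadjusted threshold, while it was 0.23 without sham 3 and 0.26 without stroke 3.

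Polh (ENSMUSG00000023953, chr17:46171355-46202645, minus strand), the translesion polymerase that leaves mutations at A:T pairs, did not separate the groups either. Its level was 14.93, 19.53 and 29.02 in sham controls and 11.7, 19.15 and 27.44 in stroke mice. The log2 difference was -0.07 (SE 0.20, 95% interval -0.51 to 0.37, exact permutation p = 0.755, adjusted limma p = 0.952), and 1 stroke mouse was below all sham controls.

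The end protection genes gave different pictures of spread. Trp53bp1 (ENSMUSG00000043909, chr2:121193281-121271407, minus strand) was held within a narrow range in sham controls, from 67.42 over a median of 71.1 to 74.54, a coefficient of variation of 3.44%. In stroke mice it ranged from 37.69 over a median of 64.88 to 76.64, a coefficient of variation of 21.3%. The lowest value was that of stroke 5, and the other 5 stroke mice lay between 58.56 and 76.64. Of the 6 stroke mice, 4 were below every sham control and 1 was above all of them. The log2 difference was -0.23 (SE 0.15, 95% interval -0.55 to 0.09, exact permutation p = 0.0844, adjusted limma p = 0.794). It was -0.10 without stroke 5, the mouse with the lowest value, which was also the mouse with the highest Apobec1. Rif1 (ENSMUSG00000036202, chr2:52072832-52122383, plus strand), which binds Trp53bp1 and blocks resection of the break, was at 49.48, 68.05 and 76.18 in sham controls and at 55.46, 62.65 and 81.81 in stroke mice. Its log2 difference was 0.0044 (SE 0.14, 95% interval -0.29 to 0.30, exact permutation p = 0.976, adjusted limma p = 0.997).

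**Figure D2:**
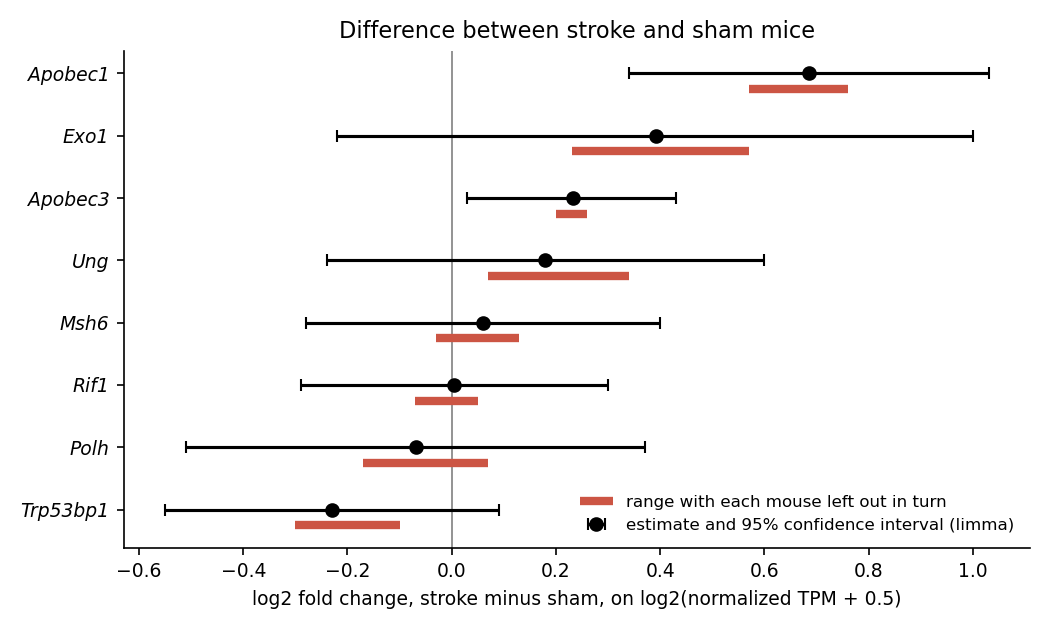
Log2 fold change of stroke minus sham (horizontal axis, on log2 of normalized TPM + 0.5) for the 8 genes. Points and black bars are the limma estimate with its 95% confidence interval, and red bars are the range of estimates when single mice were omitted. The intervals of Apobec1 (0.34 to 1.03) and Apobec3 (0.03 to 0.43) lie above 0, and the other 6 include 0.

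Over the 8 members the median log2 fold change was 0.12, with 6 above and 2 below zero, beside a median of 0.0069 over all tested genes, of which 51.4% were above zero. For the 6 members with no call, the intervals of the log2 difference reached at most from -0.55 to 1.0, the lower bound belonging to Trp53bp1 and the upper to Exo1.

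The members differed widely in level. The mean over the 12 mice, in normalized TPM, was 518 for Apobec3, 89.2 for Apobec1, 67.3 for Msh6, 66.3 for Trp53bp1, 65.6 for Rif1, 19.9 for Polh, 10.98 for Exo1 and 8.30 for Ung. Neighbors in this order were compared within mice by exact two-sided sign-flip tests, adjusted over the 7 pairs. Apobec3 was above Apobec1 in 12 of 12 mice, 6.02-fold on average (adjusted exact p = 0.00114). Rif1 was above Polh (3.29-fold) and Polh above Exo1 (1.85-fold) in 12 of 12 mice, each with the same adjusted exact p of 0.00114. The distance between Apobec1 and Msh6 was smaller, 1.28-fold, with Apobec1 higher in 9 mice (adjusted exact p = 0.0265). Exo1 was 1.26-fold above Ung and higher in 10 mice (adjusted exact p = 0.0294). Apobec1 was above Msh6 in 3 of 6 sham controls (mean levels 67.73 and 66.06) and in 6 of 6 stroke mice (110.7 and 68.55), so its place in the order came from the stroke mice, and in sham controls the mean of Trp53bp1 (70.89) was above both. Exo1 was above Ung in 4 of 6 sham controls and 6 of 6 stroke mice. Both calls also lay near the threshold and were lost without certain single mice, although a smaller number of mice itself raises the smallest p this test can give. The adjusted exact p of Apobec1 against Msh6 was 0.053 without stroke 1 or stroke 5, and that of Exo1 against Ung was 0.0561 to 0.0588 without sham 1, sham 2, stroke 1, stroke 3 or stroke 5. Msh6, Trp53bp1 and Rif1 could not be ordered, since both neighboring pairs had an adjusted exact p of 0.949.

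Between mice of the same group, Msh6, Exo1 and Polh varied with proliferation markers, and Exo1 and Polh also with germinal center markers. Correlations were computed over the 12 mice on log2 values after subtraction of the group means, with permutation tests adjusted over 80 pairs of a member and a marker score, and the marker lists shared no gene with the members. The proliferation score, the mean log2 level of 12 cell cycle genes such as Mki67 and Top2a, had r = 0.913 with Msh6 (adjusted permutation p = 0.0084, rho = 0.944, adjusted permutation p = 0.0192). It had r = 0.886 with Polh (adjusted permutation p = 0.0173, rho = 0.923, adjusted permutation p = 0.0312). For Exo1, r was 0.888 (adjusted permutation p = 0.028), while the rank correlation of 0.825 did not pass (adjusted permutation p = 0.148). Without the 2 mice farthest from the median score, these values of r were 0.935, 0.767 and 0.778. Mice with a higher proliferation score than others of their group thus tended to have higher levels of Msh6 and Polh. For Exo1 the order was looser. Relative to the group mean, stroke 4 had the second highest score of the stroke mice (-0.012) and the lowest Exo1 (-0.38).

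The germinal center score, the mean log2 level of 8 genes such as Bcl6 and S1pr2, had r = 0.911 with Polh (adjusted permutation p = 0.0084, rho = 0.895, adjusted permutation p = 0.0312). With Exo1 it had r = 0.857 (adjusted permutation p = 0.028, rho = 0.741, adjusted permutation p = 0.216). Without the 2 mice farthest from the median score, r was 0.836 for Polh and 0.68 for Exo1. The 2 scores were not independent results. After subtraction of the group means, sham 5 (proliferation 0.574, germinal center 0.823) and stroke 3 (0.607 and 0.632) were highest in their group for both. Which of the 2 scores the genes followed was not tested. No other of the 80 pairs passed the adjusted threshold, among them proliferation with Rif1 (r = 0.726, adjusted permutation p = 0.157), Ung (r = 0.696, 0.216), Apobec1 (r = 0.402, 0.634), Apobec3 (r = -0.279, 0.879) and Trp53bp1 (r = 0.0179, 0.972). Neither score differed between groups beyond its spread. The difference of stroke minus sham was 0.08 on the log2 scale for proliferation (exact permutation p = 0.727) and 0.11 for the germinal center score (exact permutation p = 0.69).

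**Figure D3:**
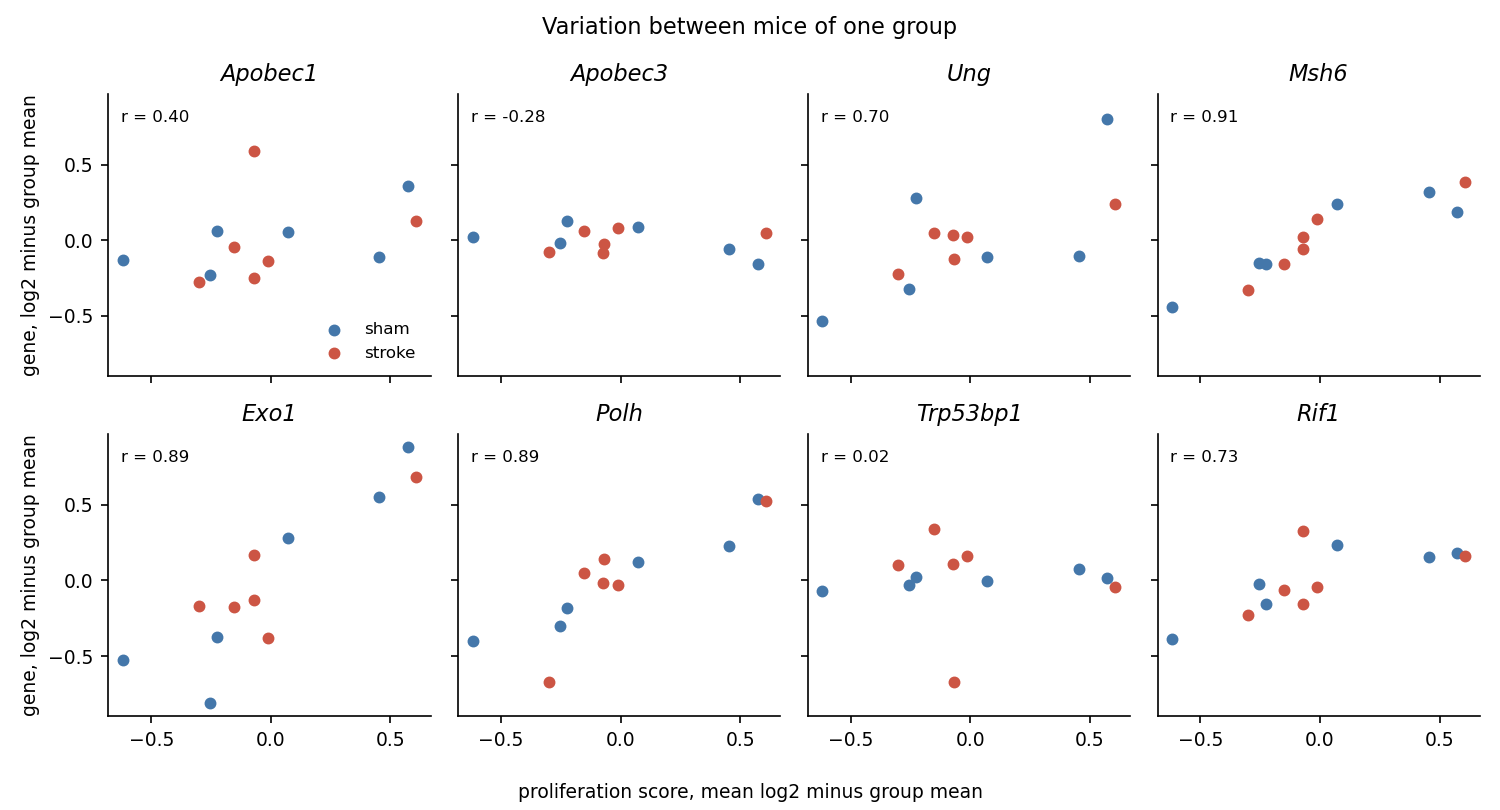
Level of each of the 8 genes (vertical axis) against the proliferation score (horizontal axis), both in log2 units after subtraction of the group mean, with 1 point a mouse for sham controls (blue) and stroke mice (red). The points of Msh6 (r = 0.913), Exo1 (r = 0.888) and Polh (r = 0.886) tend to rise with the score, and those of Trp53bp1 (r = 0.0179) do not.

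Among the 28 pairs of members, 6 had an adjusted permutation p under 0.05 over the 12 mice. These were Msh6 with Polh (r = 0.841, adjusted permutation p = 0.0365), Polh with Exo1 (r = 0.82, 0.0365), and Rif1 with Polh (r = 0.762), Msh6 (r = 0.749) and Apobec1 (r = 0.702) and Polh with Ung (r = 0.689), the last 4 at an adjusted permutation p of 0.0489. By rank none of the 28 pairs passed, with an adjusted permutation p for rho of 0.0545 for Msh6 with Polh, Polh with Exo1 and Rif1 with Polh, 0.0842 for Rif1 with Msh6, 0.0908 for Rif1 with Apobec1 and 0.212 for Polh with Ung. Polh took part in 4 of these 6 pairs. Apobec3 and Trp53bp1 took part in none.

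The genes whose levels were most like those of each member over the 12 mice, by Pearson's r of log2 values after subtraction of the group means, are given as a description. Each r is among the largest over all tested genes, which alone makes it high, and no chance level was computed. They were Gpsm2 (r = 0.96), Racgap1 (0.957) and Prr11 (0.942) for Exo1, and Hmces (0.951), Nusap1 (0.936) and Lig1 (0.932) for Polh. Msh6 was closest to Polr2g (0.974) and Pafah1b3 (0.933), and Ung to Herc3 (0.869), E2f1 (0.834) and Zfp954 (0.829). Trp53bp1 was closest to Fbh1 (0.964), Ints3 (0.944) and Borcs8 (0.942), and Rif1 to Akt1 (0.949), Otulin (0.936) and H1f10 (0.935). Apobec1 was closest to Mrpl37 (0.943), Ncaph2 (0.92) and Arfgap2 (0.916). Apobec3 had the least close neighbors together with Ung, namely Olfr906 (0.842), Smim27 (0.841) and Ooep (0.829).

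Other genes of the same pathways were taken from 6 lists of 70 genes in all, of which 68 were tested. At an unadjusted limma p under 0.05, 2 were higher and 1 was lower, which is 4.41% in either direction beside 6.12% of all genes. None had an adjusted p under 0.05. The median log2 fold change over the 68 genes was 0.06.

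Of the RNA editing partners of Apobec1, 0 of 4 tested genes were called. Rbm47, an RNA-binding cofactor of Apobec1, ranged from 7.018 over a median of 12.81 to 43.66 in sham controls and from 4.588 over 9.777 to 24.37 in stroke mice (log2 difference -0.73, SE 0.53, adjusted p = 0.815). Celf2, an RNA-binding protein, had a log2 difference of 0.06 (adjusted p = 0.92). The classical cofactor A1cf was not tested, since its level fell below 1 in some mice, and ranged from 0.0313 to 9.17 in sham controls and from 0.0158 to 6.69 in stroke mice.

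Of 13 tested genes of uracil and base excision repair, 1 was lower and 0 were higher, which is 7.69% lower beside 1.69% of all tested genes. Ogg1, the glycosylase that removes oxidized guanine, was at 6.068, 6.479 and 9.248 in sham controls (lowest, median, highest) and at 4.203, 5.647 and 6.751 in stroke mice, where 4 were below every sham control. Its log2 fold change was -0.31 (SE 0.14, adjusted p = 0.791). Polb, the gap-filling polymerase of this pathway, had a log2 difference of -0.25 (SE 0.13, adjusted p = 0.791). None of 14 genes of excision and resynthesis after mismatch recognition was called. The smallest p values there belonged to Lig1, which seals nicks (log2 difference 0.33, SE 0.18), and Rpa2, a subunit of the protein that coats single-stranded DNA (0.26, SE 0.15), both at an adjusted p of 0.793. None of 13 translesion genes was called, with Rev1, a translesion DNA transferase (log2 difference 0.22, SE 0.13), and Rev3l, the catalytic subunit of polymerase zeta (0.24, SE 0.14), nearest to the threshold.

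Among 14 genes of DNA end protection, 2 were higher, which is 14.3% beside 4.42% of all tested genes. Paxip1, which binds phosphorylated Trp53bp1, was at 29.96, 36.61 and 44.77 in sham controls and at 38.05, 43.86 and 64.62 in stroke mice (log2 fold change 0.34, SE 0.14, adjusted p = 0.791). Pagr1a, a partner of Paxip1, was at 1.638, 6.658 and 20.03 in sham controls and at 7.128, 12.37 and 23.19 in stroke mice (log2 fold change 1.04, SE 0.47, adjusted p = 0.791). The ranges of both genes overlapped between the groups. None of 10 end joining genes was called. Xrcc6, a subunit of the Ku complex that binds broken ends, had a log2 difference of 0.21 (SE 0.10), and its partner Xrcc5 one of -0.07 (SE 0.14). These calls depended on single mice, since 3 pathway genes were called with all mice, 0 without sham 2 or stroke 5, 1 without sham 4, stroke 4 or stroke 6, 5 without sham 5 and 7 without sham 6.

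**Figure D4:**
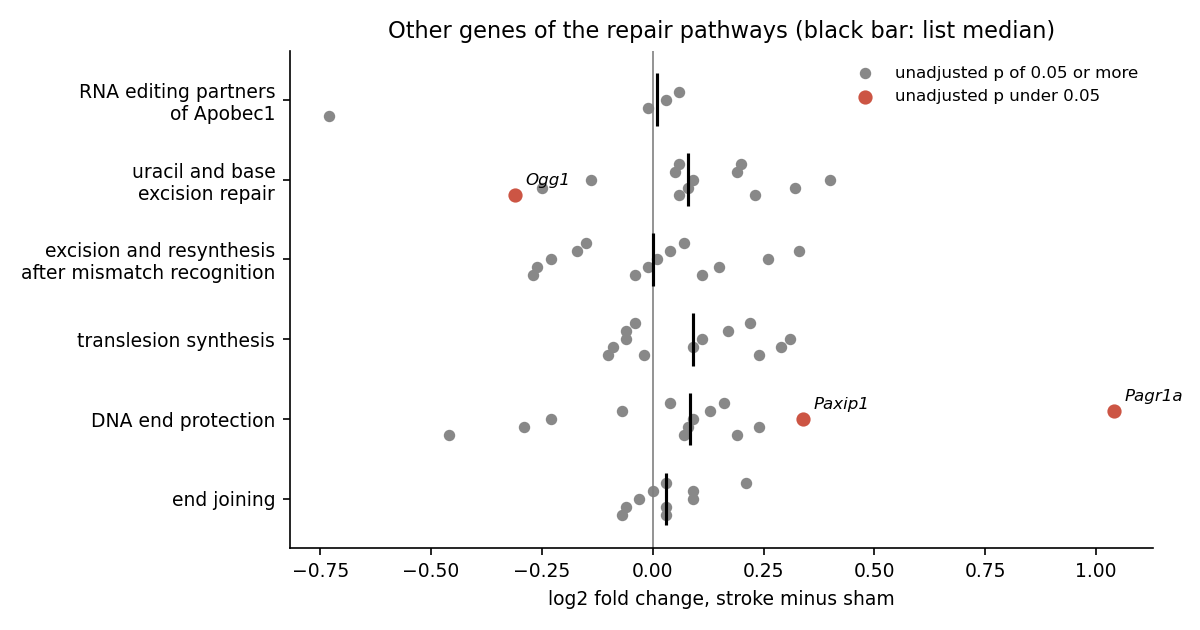
Log2 fold change of stroke minus sham (horizontal axis) for the 68 tested genes of the 6 pathway lists (rows), 1 point a gene, with a black bar at the list median. Red points mark the 3 genes with an unadjusted p under 0.05, Ogg1 at -0.31, Paxip1 at 0.34 and Pagr1a at 1.04.

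Markers of the cells a preparation could hold were read beside these results. The summed level of 7 B cell markers was 2580 to 3220 in sham controls and 1820 to 2900 in stroke mice (score difference -0.17, exact permutation p = 0.229, and -0.06 without stroke 5), all 7 were present in all mice, and Ptprc, which encodes the CD45 used for enrichment, was lower at the unadjusted threshold (log2 fold change -0.33, adjusted p = 0.753). Within groups, the B cell score had r = -0.702 with Apobec1 (permutation p = 0.0471, adjusted over 80 pairs 0.269, rho = -0.664, permutation p = 0.0238), and r was -0.639 without the 2 farthest mice. With Trp53bp1 the B cell score had r = 0.803 (permutation p = 0.0296, adjusted over 80 pairs 0.216), and r was 0.179 without the 2 farthest mice. The lowest B cell score, 7.91, belonged to stroke 5, the mouse with the highest Apobec1 and the lowest Trp53bp1. The summed level of 10 markers of intestinal epithelium, a tissue where Apobec1 is known to be active, ranged from 36.1 to 1720 in sham controls and from 32.7 to 857 in stroke mice (score difference -1.36, exact permutation p = 0.242), with Cdx2 at 0 in at least 1 mouse. The score difference had the opposite sign to that of Apobec1, and its correlation with Apobec1 within groups was -0.187 (permutation p = 0.569, rho = -0.252, permutation p = 0.46). With this score as a covariate Apobec1 kept its unadjusted call, and Apobec3 lost it at a log2 fold change of 0.21 in place of 0.23. The 10 markers of macrophages and monocytes summed to 41.8 to 362 and 54.8 to 202 (score difference -0.07, exact permutation p = 0.853), Cd14 was at 0 in at least 1 mouse, and the score had r = -0.132 with Apobec1 (permutation p = 0.659, rho = 0.028, permutation p = 0.937). Neutrophil markers summed to 3.25 to 5.12 and 3.48 to 7.92, and S100a8, S100a9, Ly6g and Mmp8 were at 0 in some mice. For T cells (8 markers) the sums were 79.9 to 140 and 65.4 to 174, for plasma cells (6 markers) 271 to 1400 and 331 to 1030 and for endothelium (6 markers) 83.5 to 108 and 91.1 to 110, with Tek and Emcn at 0 in some mice. None of these scores differed between groups at an unadjusted exact permutation p under 0.05 with all mice, endothelium passed it without stroke 6 (score difference -0.12), and the part of other cells in the results of the members was not tested.

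Interferon-stimulated genes were read beside Apobec3, which held the response element core in 1 of its 2 promoter windows. Of 13 tested genes of that list 2 passed the unadjusted threshold, both higher, where 4.42% of all tested genes did so, Mx1 (log2 fold change 0.43, adjusted p = 0.744) and Ifit3 (0.77, adjusted p = 0.791), and the median log2 fold change of the list was -0.04. The score differed by 0.06 (exact permutation p = 0.758). Over the 12 mice, Apobec3 had r = -0.429 with the score (permutation p = 0.164, rho = -0.483, permutation p = 0.12) and -0.237 without the 2 farthest mice. For Apobec1, r was -0.682 (permutation p = 0.0229, adjusted over 80 pairs 0.203, rho = -0.566, permutation p = 0.084).

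The deposited columns summed to between 559570 in sham 6 and 1404340 in sham 1, and the 10 most abundant genes took 14.73% and 45.8% of the sum in these mice. Stroke 6 had 30060 genes above 0 and the other mice between 20626 and 23947. Read counts were not given, so the depth behind each value is unknown.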

How the data were processed

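The 12 samples were grouped by the treatment named in the sample labels. The replicate numbers 1 to 6 carry no stated meaning, and a figure legend of the paper says that data of several independent experiments were combined. Exact and permutation p-values measure the spread between these mice, while limma p-values also draw on the spread of other genes. According to the methods, the authors trimmed reads with Trimmomatic 0.39, pseudo-aligned them with kallisto 0.48.0 to GRCm38 and tested genes with sleuth 0.30.0. The deposited values are a normalized TPM signal whose sums differ between mice, so they were treated as a signal and not as TPM. Sequencing depth is unknown, since neither the number of reads nor a count was given.

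The 12590 genes of at least 1 in each of the 12 mice were taken as log2(value + 0.5), and limma 3.58.1 (R 4.3.3) was fitted to all of them, with Benjamini-Hochberg adjustment. The fit had no covariate, after the study's own test. Its moderated test pools the spread of each gene with that of all fitted genes. Calls use an unadjusted p under 0.05, the level its methods give without naming an adjustment, while its results also use an adjusted p with a minimum fold change. Single scores were compared by exact two-sided permutation tests and correlations by 100000 permutations within groups.

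The genes named were all 8 members, in each pathway list the called genes or, where fewer than 2 were called, the 2 of smallest p, and for each member the 3 most alike genes, leaving out immunoglobulin variable genes and unnamed genes. Some genes of these rules are not reported here. The members and lists were chosen with earlier results of these data known. Gene positions are from GENCODE on GRCm38 and promoters from RefSeq. Other pseudocounts, filters, scalings, weights, covariates, a replicate block and the omission of each mouse were tried.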

Additional observations from a re-analysis of the deposited data

Results flagged for a closer look

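In 68 groups of 6 mice (the 8 members, 16 other named genes and 10 scores, each in both groups), 4 values stood far from the other mice of their group by Dixon's test. Chance gives about 1 in 20 groups, a rate near the one seen. None was a value of the 8 members. Of the 4, 3 belonged to stroke 5, in which the B cell score was 7.91 on the log2 scale against 8.46 to 8.61 in the other stroke mice, Ptprc was at 329.0 and Polb at 17.5 normalized TPM. The other was the proliferation score of stroke 3, at 6.04 against 5.13 to 5.42 in the other stroke mice. Their part in the results of the members was not tested beyond leaving out each mouse.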

How the results depend on the processing

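Over 25 alternatives, Apobec1 and Apobec3 kept their direction in 25 each, Apobec1 its unadjusted limma p under 0.05 in 25, and Apobec3 in 17. With groups that did not overlap, leaving out a mouse or changing the pseudocount or filter could not turn the direction. The log2 fold change of Apobec3 was 0.20 to 0.36, beside 0.23 as reported. Its call was lost, leaving 1 member called, under median-of-ratios scaling (0.21), the same total in each mouse (0.36), quantile normalization (0.36), an intensity trend (0.23), the epithelium score as covariate (0.21) and without stroke 4 (0.22). Without sham 5 it was also lost while Ung and Exo1 were called, so that leaving out 1 mouse gave 1 to 3 called members. The same total in each mouse moved the median log2 fold change of all genes to 0.12. Small differences turned their sign: Polh to 0.06 with the same total (-0.17 to 0.07 with 1 mouse left out), Msh6 from -0.03 to 0.13 with 1 mouse left out, and Rif1 to -0.02 with median-of-ratios scaling, -0.04 with quality weights, -0.03 with the germinal center covariate and -0.07 to 0.05 with 1 mouse left out. Of the pathway genes 1 was called with a filter on the mean, 1 with median-of-ratios scaling, 1 with the same total and 0 with the epithelium covariate, and 0 to 7 with 1 mouse left out. The cause was not tested.

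With 1 mouse left out, the log2 difference of the score was -0.22 to -0.06 for B cells, -0.34 to -0.01 for plasma cells, -2.07 to -0.93 for intestinal epithelium, -0.02 to 0.27 for germinal center B cells, -0.04 to 0.2 for proliferation, -0.27 to 0.12 for macrophages, -0.14 to 0.18 for T cells, -0.12 to 0.01 for endothelium and -0.03 to 0.16 for the interferon response. For neutrophils the difference was 0.17 with all mice, 0.08 to 0.24 with 1 mouse left out and 0.41 with a pseudocount of 0.1. The T cell score was 0.0024 with a pseudocount of 1 and 0.1 with the same total, which gave 0.04 for macrophages and 0.02 for endothelium. The mean log2 difference between levels was -0.05 to 0.07 for Msh6 against Trp53bp1, -0.03 to 0.11 for Trp53bp1 against Rif1, 0.27 to 0.43 for Apobec1 against Msh6 and 0.28 to 0.4 for Exo1 against Ung.

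The labels do not say what the replicate numbers stand for. The deviations of same-numbered mice had correlations of 0.494, 0.212, 0.0761, 0.139, 0.0134 and 0.373 over genes. Their mean was 0.218, beside -0.0414 for other pairs, and the own number was the best partner for 2 of 6 sham controls. With the replicate block, 1 member was called, since Apobec3 lost its call at the same log2 fold change of 0.23 (SE 0.10) and Apobec1 kept it, 4 pathway genes were called, and over all genes 770 were higher and 404 lower in place of 557 and 213. These were 341 and 72 with the same total, 866 and 703 with quality weights and 1418 and 350 with no filter, and 936 and 1162 without sham 6. With a filter on the mean, and also without sham 1, 1 gene that is not a member had an adjusted limma p under 0.05.

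The number of mice limits the precision, since the interval of the log2 difference for the 6 members with no call spanned changes in both directions, and without read counts no floor can be given for low genes.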
